A study of Homo sapiens with 8 samples.

Results

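This report describes 10 transcripts of the TGFβ receptor pathway in the pancreatic cancer cell line PANC-1, chosen by name for their place in the pathway. They are the genes of the type I receptors *TGFBR1*, *ACVR1B*, *ACVR1* and *BMPR1A*, the type II receptors *TGFBR2* and *BMPR2*, the type III receptor *TGFBR3*, and the signal carriers *SMAD2*, *SMAD3* and *SMAD4*. All 10 were among the 13307 genes measured, and no filter on low values removed any of them. PANC-1 is an established line from a carcinoma of the human pancreatic duct. The cells received siRNA by lipid transfection, either a control siRNA (siControl) or siRNA against PHF13 (siPHF13), and each was kept without TGFβ or, from the next day, in medium with 10 ng/ml TGFβ, a driver of epithelial-mesenchymal transition, for 48 h. This gave 4 groups (siControl, siPHF13, siControl + TGFβ and siPHF13 + TGFβ) with 2 libraries each. PHF13 is a chromatin protein whose PHD finger binds trimethylated lysine 4 of histone H3. The comparisons ask how depletion of PHF13 and exposure to TGFβ changed the transcripts of the receptors and SMADs.

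A TGFβ or activin ligand brings together a type II and a type I receptor, both of which are serine/threonine kinases. The type II kinase phosphorylates the type I kinase, which in turn phosphorylates *SMAD2* and *SMAD3*. These bind the common partner *SMAD4*, enter the nucleus and act on target genes with other transcription factors, while BMP ligands use *BMPR1A*, *ACVR1* and *BMPR2* to reach another set of SMADs. TGFβ signalling is known in carcinoma of the pancreas both as a brake on growth and as a driver of epithelial-mesenchymal transition, and loss of *SMAD4* is frequent in this tumour type.

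The values are normalized read counts, that is reads counted on the exons of a gene and divided by a size factor for the library. Between 39196214 and 46700806 reads per library fell on the 13307 genes. PHF13 itself, on chromosome 1 at 6673791 to 6684090 of the human genome build GRCh37, was measured at 1804 and 1662 normalized counts in siControl and 524.2 and 558.3 in siPHF13. With TGFβ it stood at 1586 and 1709.5 in siControl and 512.8 and 529.4 in siPHF13, so that it fell by 68.7% without TGFβ and fell by 68.3% with it. Among marker lists, 8 of 8 genes listed for PANC-1 as a ductal carcinoma line were measured. They include the mesenchymal genes *VIM*, at 160328 to 202482 over the libraries, and *CDH2*, while the epithelial *EPCAM* ran from 115.2 to 305.8. Of the other lists, 0 of 5 acinar, 0 of 4 endocrine and 0 of 3 endothelial genes were analysed here, and 1 of 4 leukocyte genes was (*CD14*, whose 8 libraries ran from 23.7 to 78.7). Of 4 fibroblast genes 1 was analysed, *COL1A1*, a collagen chain, which ranged from 3345 to 3433 in siControl, 1887 to 1922 in siPHF13, 15334 to 16414 in siControl + TGFβ and 4691 to 4909 in siPHF13 + TGFβ. Its part in the values below was not tested.

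Each comparison below comes from one limma fit of log2(normalized count + 1) over all 8 libraries, with Benjamini-Hochberg adjusted p-values (all 13307 genes). A gene was called changed at an adjusted p under 0.05 together with an absolute log2 fold change over 0.58, and SE and 95% confidence intervals are those of that fit. The count models edgeR and DESeq2 were run on the reads of 7 libraries, without siPHF13 replicate 1. The untreated siPHF13 group is then 1 library, assumed to vary like the other groups, so that their values for depletion without TGFβ, for TGFβ in siPHF13 cells and for the difference between responses have no replicate check in that group. The labels do not say that the 2 libraries of a group came from separate cultures, so the p-values measure the spread between these libraries, which may be technical. The comparisons share libraries and are therefore not independent of each other.

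The 4 members that changed in at least one comparison are those whose start regions are shown here. The letters are from the GRCh37 reference genome, lie within the 250 bases before the canonical start site of each gene, outside every annotated exon, and read 5′ to 3′ on the strand of the gene. Capitals mark the pentamer CAGAC or its complement GTCTG, a core sequence that *SMAD3* and *SMAD4* bind.
TGFBR1, chr9:101867145-101867318, + strand: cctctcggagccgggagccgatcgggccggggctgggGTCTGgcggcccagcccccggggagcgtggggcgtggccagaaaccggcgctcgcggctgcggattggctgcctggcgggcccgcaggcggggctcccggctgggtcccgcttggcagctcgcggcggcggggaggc
TGFBR3, chr1:92351709-92351958, - strand: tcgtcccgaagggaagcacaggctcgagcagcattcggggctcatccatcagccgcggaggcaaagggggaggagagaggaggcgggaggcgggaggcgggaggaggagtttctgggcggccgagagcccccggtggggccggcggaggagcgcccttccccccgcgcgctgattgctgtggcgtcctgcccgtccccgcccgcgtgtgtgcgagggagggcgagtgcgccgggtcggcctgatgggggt
SMAD2, chr18:45457031-45457166, - strand: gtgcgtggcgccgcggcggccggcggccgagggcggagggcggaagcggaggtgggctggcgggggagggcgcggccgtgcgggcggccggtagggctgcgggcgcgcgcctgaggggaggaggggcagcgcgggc
BMPR2, chr2:203240866-203241049, + strand: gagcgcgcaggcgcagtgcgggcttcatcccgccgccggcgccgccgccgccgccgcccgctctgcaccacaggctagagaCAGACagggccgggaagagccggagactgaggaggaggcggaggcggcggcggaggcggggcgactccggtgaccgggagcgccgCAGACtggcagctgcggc
In the stretches shown, *BMPR2* holds the pentamer at 103 and 18 bases before the start, and *TGFBR1* holds it at 213 bases before. Over the full 250-base windows, *TGFBR3* and *SMAD2* had no match, and *ACVR1* was the only other member with one, at 74 bases before its start. Of 19855 promoter windows of this length, 35.9% held the pentamer on either strand. A match is a description of the letters and does not show a bound site. The AP1 sequence TGANTCA was in 0 of the 10 windows and in 4.7% of all windows, and the hexamer GGGCGG on either strand, the GC box, was in the windows of all members but *TGFBR1* and in 59.2% of all. The windows of 9 members held more CpG than the median of 18 over all windows, with 43 for *SMAD2*, 36 for *BMPR2*, 35 for *TGFBR1* and 28 for *TGFBR3*, and the most, 48, for *ACVR1B*. *TGFBR2* was under the median with 12.

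Upon PHF13 depletion without TGFβ, 3 of the 10 transcripts fell, *TGFBR1*, *TGFBR3* and *SMAD2*, and 0 rose. Over all genes the share called lower was 10.4% and the share called higher 7.95%. The median log2 fold change of the members was -0.16, against 0 over all genes. In TGFβ-treated cells depletion lowered 4 members, the same 3 and *BMPR2*, where 11.7% of all genes were called lower and 8.81% higher. The median of the members was then -0.26, again against 0 over all genes. No member was called higher in either depletion comparison by limma, edgeR or DESeq2, and 0 were higher at an unadjusted p under 0.05. These values are uncorrected. With each library corrected for transcript length and GC content, depletion without TGFβ gave -0.78 for *TGFBR1*, -1.19 for *TGFBR3* and -0.61 for *SMAD2*. With TGFβ it gave -0.91, -0.74 and -0.64. Above 0 were then *TGFBR2* (0.15, limma adjusted p = 0.0229) and *BMPR2* (0.12) without TGFβ. With TGFβ these were *TGFBR2* (0.04), *SMAD3* (0.03) and *SMAD4* (0.12). The correction took the longest annotated transcript of each gene. For *SMAD2* this has 34626 bases, and the length made in PANC-1 was not measured, so its corrected values are uncertain. In bulk RNA, fewer cells with a transcript and less of it per cell cannot be told apart.

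**Figure D1:**
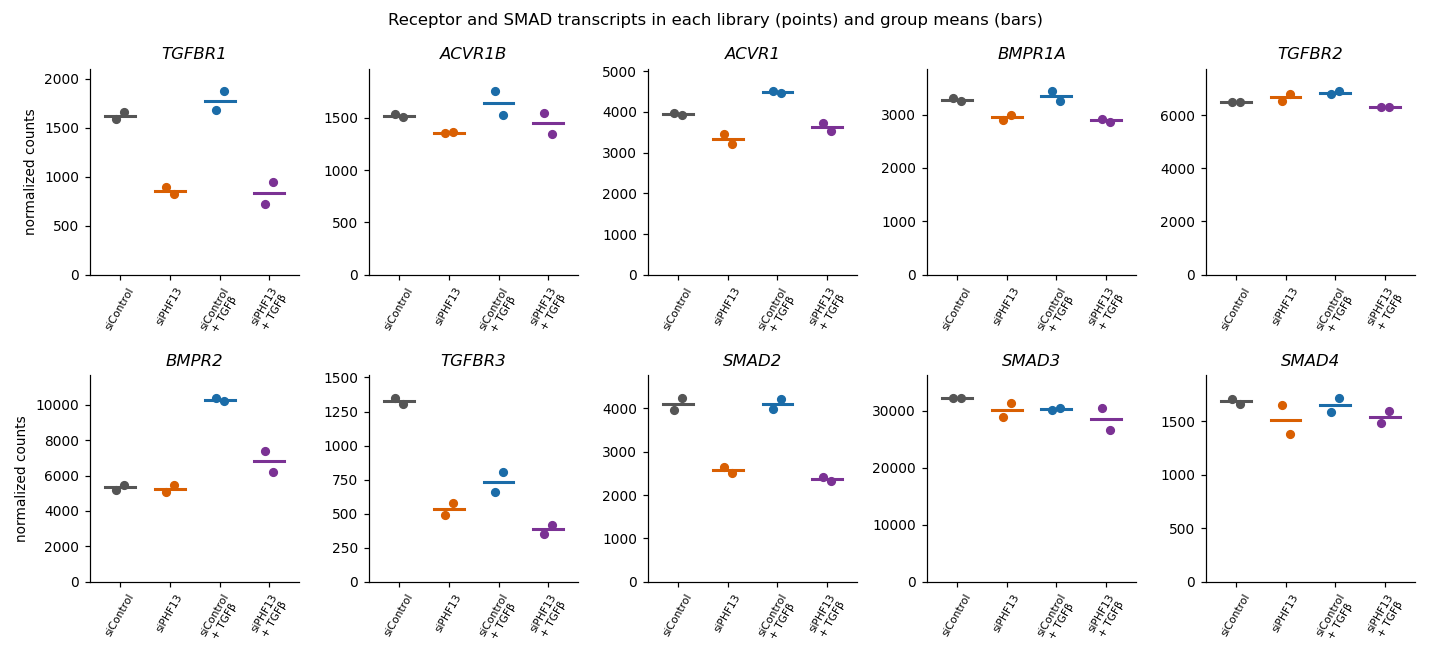
Normalized counts (y axis, from 0, one scale per gene) of the 10 transcripts in the 4 groups (x axis), with a point for each library and a bar for the group mean. *TGFBR1* and *SMAD2* stand lower in both siPHF13 groups, *TGFBR3* is highest in siControl, and *BMPR2* is highest in siControl + TGFβ at 10199 and 10419.7.

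*TGFBR1* encodes the type I kinase that receives TGFβ signals and phosphorylates *SMAD2* and *SMAD3*. The gene lies on the plus strand of chromosome 9 at 101866320 to 101916474 (GRCh37). It was measured at 1587 and 1662 normalized counts in siControl and 896.2 and 819.7 in siPHF13. With TGFβ the levels were 1679 and 1880.2 in siControl and 720 and 951.9 in siPHF13. All 4 siPHF13 libraries lay below all 4 siControl libraries. Without TGFβ, *TGFBR1* fell by 47.2% upon depletion (log2 fold change -0.92, SE 0.12, limma adjusted p = 2.63e-05). In TGFβ-treated cells it fell by 53.4% (log2 fold change -1.10, SE 0.12, limma adjusted p = 4.8e-06). TGFβ itself gave log2 differences of 0.13 in siControl cells, with a 95% interval from -0.12 to 0.38, and of -0.05 in siPHF13 cells, with an interval from -0.30 to 0.20.

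*ACVR1B*, the type I receptor for activins, which also signals through *SMAD2* and *SMAD3*, did not pass the thresholds in any comparison. Its gene is on chromosome 12 at 52345483 to 52390862. The libraries held 1540.3 and 1504 normalized counts in siControl, 1354 and 1363 in siPHF13, 1760.5 and 1525 in siControl + TGFβ, and 1550.2 and 1343 in siPHF13 + TGFβ. Without TGFβ the 2 depleted libraries lay below both controls, whereas with TGFβ the groups overlapped. The log2 difference with depletion was -0.16 without TGFβ, with an interval from -0.36 to 0.04, and -0.18 with TGFβ, with an interval from -0.38 to 0.02. Its limma adjusted p was 0.167 and 0.118.

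*ACVR1* is a type I receptor used mainly by BMP ligands, on chromosome 2 at 158592763 to 158732842. It was measured at 3967 and 3928 normalized counts in siControl, 3463 and 3200 in siPHF13, 4523 and 4474 in siControl + TGFβ, and 3729.8 and 3527 in siPHF13 + TGFβ. The depleted libraries were below their controls both without and with TGFβ, by less than the fold threshold. The log2 differences were -0.25 (SE 0.07, limma adjusted p = 0.00734) and -0.31 (SE 0.07, limma adjusted p = 0.00143). When each library was corrected for transcript length and GC content, they came to -0.14 (adjusted p = 0.0862) and -0.19 (adjusted p = 0.0223). Without TGFβ the adjusted p stayed under 0.05 in 5 of 8 fits that each left out 1 library, within a range from 0.0023 to 0.0824.

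*BMPR1A*, the other BMP type I receptor among the members, lies on chromosome 10 at 88516353 to 88692582. Its libraries held 3302 and 3262 normalized counts in siControl, 2905 and 2999 in siPHF13, 3448 and 3248 in siControl + TGFβ, and 2916 and 2867 in siPHF13 + TGFβ. The siPHF13 libraries all lay below the siControl libraries, at log2 differences of -0.15 without TGFβ (limma adjusted p = 0.0697) and -0.21 with TGFβ (limma adjusted p = 0.0156). Neither reached the fold threshold. After the correction for length and GC content both were -0.02, with adjusted p = 0.835 and 0.788. The annotation holds pseudogene copies of *BMPR1A*, so that its counts are uncertain to the extent that reads map to these as well.

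*TGFBR2* encodes the type II kinase that binds TGFβ and activates *TGFBR1*. Located on chromosome 3 at 30648093 to 30735634, it had the narrowest range of the 4 group means among the members, 0.12 on the log2 scale. The levels were 6484 and 6485.5 normalized counts in siControl, 6521 and 6805.5 in siPHF13, 6776 and 6915 in siControl + TGFβ, and 6309.9 and 6307 in siPHF13 + TGFβ. Without TGFβ both depleted libraries lay slightly above the controls, and with TGFβ both lay below. The log2 difference was 0.04 without TGFβ, with an interval from -0.09 to 0.16, and -0.12 with TGFβ, with an interval from -0.24 to 0.01. After the correction for length and GC content the values were 0.15 (adjusted p = 0.0229) and 0.04. Neither interval of the uncorrected fit reached the fold threshold of 0.58.

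*BMPR2*, the type II receptor for BMP ligands, was the only member that TGFβ raised. The gene is on chromosome 2 at 203241050 to 203432474. It was measured at 5214 and 5496 normalized counts in siControl and 10419.7 and 10199 in siControl + TGFβ. In siPHF13 cells it stood at 5045 and 5473 without TGFβ and at 7414 and 6233 with it. Libraries without TGFβ overlapped between siControl and siPHF13, while the TGFβ-treated siPHF13 libraries lay between the untreated and the treated controls. In siControl cells TGFβ raised *BMPR2* by 92.6% (log2 fold change 0.95, SE 0.08, limma adjusted p = 2.49e-06). The log2 difference in siPHF13 cells was 0.37 (SE 0.08, limma adjusted p = 0.0181), under the fold threshold. That adjusted p stayed under 0.05 in 5 of 8 fits that each left out 1 library, in a range from 0.000304 to 0.19, and was lost without siPHF13 replicate 1, siPHF13 replicate 2 or siPHF13 + TGFβ replicate 1. It was 0.0656 with only the libraries compared and 0.0275 with the replicate block. After the correction for length and GC content the log2 difference was 0.42 (limma adjusted p = 0.000507). With a single untreated siPHF13 library, the log2 difference was 0.32 in both count models.

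Depletion left *BMPR2* at a log2 difference of -0.03 without TGFβ, with an interval from -0.20 to 0.14. In TGFβ-treated cells *BMPR2* fell by 34.1% (log2 fold change -0.60, SE 0.08, limma adjusted p = 2.79e-05). That value is close to the fold threshold: it was -0.48 without siPHF13 + TGFβ replicate 2 and -0.36 after the correction for length and GC content, with adjusted p = 3.24e-05 and 0.00014, so that in both cases the call was lost through its size. The difference between the responses to TGFβ, siPHF13 minus siControl, was -0.57 (SE 0.11, interval from -0.81 to -0.33, limma adjusted p = 0.0447). Its adjusted p stayed under 0.05 in 2 of 8 fits that each left out 1 library, in a range from 0.000586 to 0.322. The adjusted p of *BMPR2* was 0.0925 with edgeR and 0.00255 with DESeq2, both with a single untreated siPHF13 library. The replicate libraries of siPHF13 + TGFβ differ most here, and without replicate 1 the difference was -0.70, without replicate 2 it was -0.45. After the correction for length and GC content the difference was -0.48 (limma adjusted p = 0.0161). With the replicate block it was -0.57 (limma adjusted p = 0.0673).

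*TGFBR3*, also called betaglycan, is a co-receptor without kinase activity that presents TGFβ to the type II receptor. It lies on the minus strand of chromosome 1 at 92145900 to 92371892. The libraries held 1352.5 and 1303 normalized counts in siControl, 488.4 and 577.1 in siPHF13, 657.6 and 805.4 in siControl + TGFβ, and 350.8 and 419.6 in siPHF13 + TGFβ. No library of one group overlapped another group, and the order was siControl, siControl + TGFβ, siPHF13 and siPHF13 + TGFβ from high to low. Upon depletion *TGFBR3* fell by 60% without TGFβ (log2 fold change -1.32, SE 0.13, limma adjusted p = 2.52e-06). With TGFβ it fell by 47.2% (log2 fold change -0.92, SE 0.13, limma adjusted p = 5.53e-05).

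*TGFBR3* also responded to TGFβ and fell by 45.1% in siControl cells (log2 fold change -0.87, SE 0.13, limma adjusted p = 0.000433). In siPHF13 cells the log2 difference was -0.47 (SE 0.13, limma adjusted p = 0.0804), which did not pass. Without siPHF13 + TGFβ replicate 2 limma called it, at -0.60 and an adjusted p = 0.0233. With a single untreated siPHF13 library, the value was -0.58 in both count models, at an adjusted p = 0.0488 with DESeq2 and 0.0976 with edgeR. The 2 responses differed by 0.40, with an interval from 0 to 0.80 and a limma adjusted p = 0.526. No difference between the responses of *TGFBR3* was therefore detected with these libraries.

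*SMAD2*, which the type I kinases phosphorylate to carry the signal to the nucleus, is on the minus strand of chromosome 18 at 45335328 to 45457517. It was measured at 3961 and 4251 normalized counts in siControl, 2651 and 2518 in siPHF13, 3976 and 4228 in siControl + TGFβ, and 2417 and 2332 in siPHF13 + TGFβ. Every siPHF13 library lay below every siControl library, and TGFβ-treated and untreated controls overlapped. Upon depletion *SMAD2* fell by 37% without TGFβ (log2 fold change -0.67, SE 0.07, limma adjusted p = 4.05e-06) and fell by 42.1% with TGFβ (log2 fold change -0.79, SE 0.07, limma adjusted p = 8.07e-07). TGFβ gave a log2 difference of 0 in siControl cells, with an interval from -0.15 to 0.15.

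*SMAD3*, the other SMAD phosphorylated by these receptors, did not pass the thresholds in any comparison. The gene is on chromosome 15 at 67356101 to 67487511. Its libraries held 32296 and 32234 normalized counts in siControl, 28797 and 31257 in siPHF13, 30153 and 30436 in siControl + TGFβ, and 30429 and 26649.5 in siPHF13 + TGFβ. The control libraries were above both depleted ones without TGFβ, but the 2 depleted libraries were farther apart than the group means, and with TGFβ the groups overlapped. The log2 difference with depletion was -0.10 without TGFβ, with an interval from -0.25 to 0.04, and -0.09 with TGFβ, with an interval from -0.24 to 0.06. The intervals for *SMAD3* and *SMAD2*, the paired signal carriers, did not overlap in either comparison.

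*SMAD4*, the common partner of the phosphorylated SMADs, lies on chromosome 18 at 48554898 to 48611415. It was measured at 1710.1 and 1657 normalized counts in siControl, 1652 and 1375 in siPHF13, 1580.5 and 1719.7 in siControl + TGFβ, and 1483 and 1591 in siPHF13 + TGFβ. The groups overlapped with TGFβ, and without it both depleted libraries lay below the controls, one of them narrowly. Its log2 difference with depletion was -0.16 without TGFβ, with an interval from -0.36 to 0.04, and -0.10 with TGFβ, with an interval from -0.30 to 0.10. An overlapping gene is annotated on the same strand as *SMAD4* and an antisense transcript at its start, and how reads on shared exons were counted is not given in the sources used here.

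**Figure D2:**
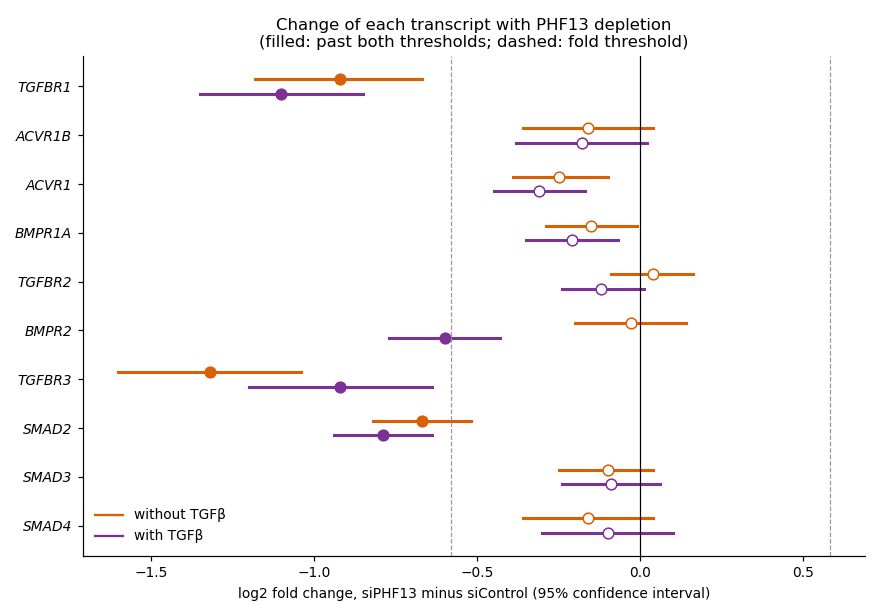
Log2 fold change of each transcript, siPHF13 minus siControl (x axis), without TGFβ (orange) and with TGFβ (purple), with 95% confidence intervals from limma. Filled points passed both thresholds and the dashed lines stand at 0.58 on either side of 0. *TGFBR1*, *TGFBR3* and *SMAD2* are filled in both comparisons, *BMPR2* in TGFβ-treated cells only, at -0.60.

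TGFβ by itself moved few of the members. In siControl cells 1 of the 10 was called higher, *BMPR2*, and 1 lower, *TGFBR3*, where 3.27% of all genes were called higher and 1.52% lower. The median log2 difference of the members was 0.05, against -0.01 over all genes. *ACVR1* came next, at 0.19 with a limma adjusted p = 0.0712, and the SMADs lay between -0.09 and 0. In siPHF13 cells 0 of 10 were called, where 1.13% of all genes were called higher and 0.218% lower. At an unadjusted p under 0.05 limma had 1 member higher and 1 lower there, *BMPR2* and *TGFBR3*, while edgeR called 0 and DESeq2 1. The interaction, the difference between the responses, called 0 members against 0.308% of all genes, with 1 positive and 1 negative at an unadjusted p under 0.05, 0 by edgeR and 1 by DESeq2. Of the interaction values that missed an adjusted p of 0.05, *TGFBR1* had -0.18, with an interval from -0.54 to 0.18, and *TGFBR2* had -0.16, with an interval from -0.33 to 0.02.

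To compare the members with each other, normalized counts were divided by the length in kilobases (kb) of the longest annotated transcript. In siControl, *SMAD3* was the most abundant, at a mean of 4991 per kb, followed by *TGFBR2* at 1119, *ACVR1* at 890.2, *BMPR1A* at 511.4, *BMPR2* at 443.7, *ACVR1B* at 335.9, *TGFBR1* at 250.2, *TGFBR3* at 205.7 and *SMAD4* at 188.3. Neighbours in this order did not overlap between their 2 libraries. *SMAD2* was left out, because its reference transcript of 34626 bases puts it at the end of the order and the length of the transcript made in PANC-1 was not measured. With the canonical transcript of each gene the order was the same.

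The order changed with the groups in 2 places. *BMPR2* passed *BMPR1A* with TGFβ, at 854.3 against 521.7 per kb in siControl + TGFβ and 565.4 against 450.6 in siPHF13 + TGFβ. In siPHF13 cells without TGFβ, *BMPR1A* and *BMPR2* overlapped, at 460 and 435.8 per kb. Depletion took *TGFBR1* and *TGFBR3* below *SMAD4*, to 132.2 and 82.53 per kb against 169.3 in siPHF13, and to 128.8 and 59.67 against 171.9 in siPHF13 + TGFβ. In siControl + TGFβ *TGFBR3* alone was below *SMAD4*, at 113.3 against 184.6 per kb.

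Within a library, the ratio of the type II receptor *TGFBR2* to the type I receptor *TGFBR1* per kb was 4.58 and 4.37 in siControl and 4.52 and 4.12 in siControl + TGFβ. Both siPHF13 groups had higher ratios, at 8.15 and 9.30 without TGFβ and 9.82 and 7.42 with it. *TGFBR2* to *TGFBR3*, the kinase to its co-receptor, was 5.34 and 5.55 in siControl, 11.5 and 9.57 with TGFβ, 14.9 and 13.1 with depletion, and 20 and 16.7 with both, without overlap between the groups. The ratio of *SMAD3* to *SMAD2*, here in normalized counts because of the length of *SMAD2*, lay between 7.20 and 8.15 in the 4 siControl libraries and between 10.9 and 12.6 in the 4 siPHF13 libraries. A ratio within a library shows unequal levels, and the changes of each transcript are those given above.

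**Figure D3:**
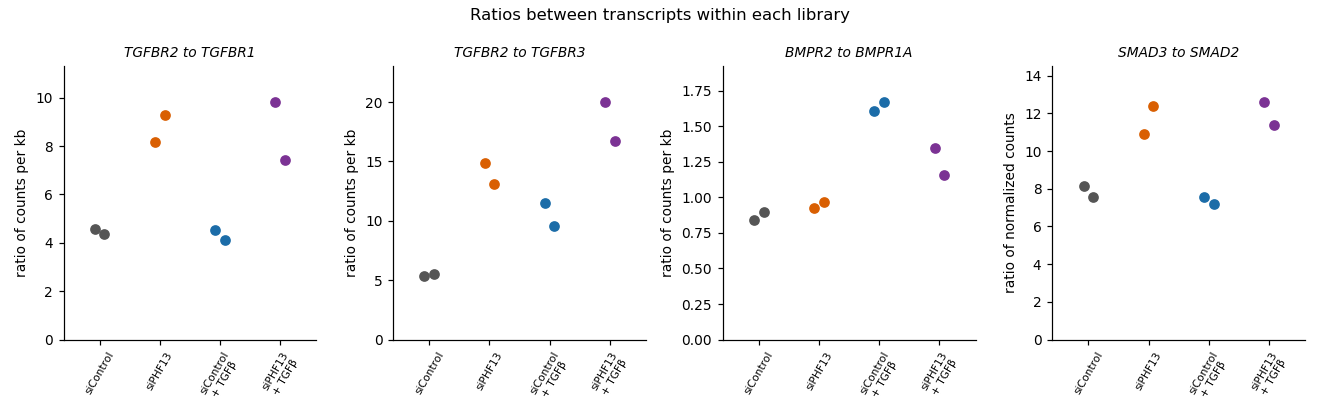
Ratios between transcripts within each library (y axes from 0, a point per library) in the 4 groups (x axis), per kb of transcript for the receptor pairs and in normalized counts for *SMAD3* to *SMAD2*. *TGFBR2* to *TGFBR1* and *SMAD3* to *SMAD2* are higher in all 4 siPHF13 libraries, and *BMPR2* to *BMPR1A* is above 1 only in the TGFβ-treated groups.

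For the 3 members with the widest range of group means, the genes with the most similar pattern were sought by Pearson correlation over the 8 libraries among 11201 genes, as a description. *TGFBR3* had a range of 1.79 on the log2 scale and was followed most closely by *SSRP1* (r = 0.991), *CHDH* (r = 0.991) and *CYB5B* (r = 0.989). For *TGFBR1*, with a range of 1.10, they were *RIOK3* (r = 0.998), *PSAT1* (r = 0.997) and *PGM3* (r = 0.995). *BMPR2*, with a range of 0.97, was closest to *MFGE8* (r = 0.995), *IL18BP* (r = 0.990) and *CHMP1B* (r = 0.990). The 8 libraries fall into 4 groups, so that a high r largely restates the order of the group means. It does not compare the size of the changes. From siControl to siPHF13 + TGFβ the mean went from 11500 to 8970 for *SSRP1*, but from 1328 to 385.2 for *TGFBR3*.

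Genes that act next to the members in the pathway were taken from 6 lists. The medians given for a list are of log2 differences and stand against medians of 0 over all genes in both depletion comparisons and of -0.01 in the others. Over all genes depletion lowered 10.4% and raised 7.95% without TGFβ and lowered 11.7% and raised 8.81% with it, and TGFβ raised 3.27% in siControl and 1.13% in siPHF13 cells. These shares are for calls with both thresholds. Counts at an unadjusted p have no share over all genes beside them. Lists this short allow no more than a count beside such shares. Of 5 other receptors analysed, depletion lowered 1 without TGFβ and 2 with TGFβ, and 0 were called higher. DESeq2 called 1 in each, and edgeR 1 and 2. *ACVR2B*, an activin type II receptor, fell by 43.3% without TGFβ (log2 fold change -0.82, SE 0.16) and had a log2 fold change of -0.92 with TGFβ. *BMPR1B*, a BMP type I receptor of low level, was at 34.5 and 35 normalized counts in siControl + TGFβ and 17.3 and 11.5 in siPHF13 + TGFβ. The medians of the 5 receptors were -0.02 and -0.33 in the 2 depletion comparisons. *ENG*, the co-receptor endoglin, was higher by less than the fold threshold, at 0.39 with depletion without TGFβ (limma adjusted p = 0.00121) and 0.26 with TGFβ (limma adjusted p = 0.014). With TGFβ in siControl cells it was higher by 35.2% (log2 difference 0.43, SE 0.08, limma adjusted p = 0.00188), and in siPHF13 cells the difference was 0.31 (limma adjusted p = 0.0547). For TGFβ in either cell state limma, edgeR and DESeq2 called 0 of the 5, and *ENG* was the 1 gene with an unadjusted p under 0.05 in limma.

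The list of 15 proteins that anchor, move or degrade the receptors had a median of 0 with depletion without TGFβ and of -0.21 with TGFβ. Without TGFβ, 1 rose and 1 fell, and edgeR and DESeq2 each called 3. At an adjusted p under 0.05 irrespective of size, 4 were higher and 5 lower, among them the ubiquitin ligase *SMURF1* at -0.57 (limma adjusted p = 3.77e-06), just inside the fold threshold. *ZFYVE9*, the SMAD anchor at endosomes, had log2 fold changes of -0.80 both without and with TGFβ. *FKBP1A*, a protein that binds resting type I receptors, rose without TGFβ by 0.77 (SE 0.06). In TGFβ-treated cells 1 rose, the deubiquitinase *USP11* at 0.61, and 3 fell, *ZFYVE9*, *SMURF1* at -0.78 and the receptor-binding protein *STRAP* at -0.63. At an adjusted p under 0.05 irrespective of size, limma had 6712 of all 13307 genes there and 6308 without TGFβ, both directions together. Of the list, 5 were higher and 8 lower there at that p, and edgeR and DESeq2 each called 5. TGFβ raised 1 in siControl cells, the ligase *SMURF2*, by 0.62, and 0 in siPHF13 cells, where limma had 3 higher and 1 lower at an unadjusted p under 0.05.

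Among 18 partners, cofactors and phosphatases of the SMADs, depletion lowered 4 without TGFβ and 2 with TGFβ, and 0 were called higher. The 2 lowered with TGFβ are 11.1% of the list, near the 11.7% over all genes. Without TGFβ edgeR and DESeq2 each called 3, and irrespective of size limma had 10 lower and 2 higher at an adjusted p under 0.05, against 11 lower and 0 higher with TGFβ. Among all 13307 genes, 6308 passed that p without TGFβ and 6712 with it, both directions together. The medians of the list were -0.21 and -0.29. *ZEB2*, a repressor that binds SMADs, was at 44.6 and 54.1 normalized counts in siControl and 16.9 and 27.6 in siPHF13. The corepressor *TGIF2* had log2 fold changes of -0.71 without and -0.72 with TGFβ. *SKIL*, a SMAD corepressor that TGFβ induces, fell by 0.62 on the log2 scale without TGFβ and by 0.98 with it. The import factor *KPNB1*, the remaining one of the 4, fell by 0.61 on the log2 scale. TGFβ raised *SKIL* by 1.25 in siControl cells and 0.89 in siPHF13 cells, and *RUNX1*, a SMAD-binding transcription factor, by 0.65 in siControl cells.

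Of the 5 other SMADs, *SMAD5*, which carries BMP signals, rose with depletion without TGFβ by 0.59 (SE 0.06), just past the fold threshold. Its libraries held 6797 and 6769 normalized counts in siControl and 9950.5 and 10421 in siPHF13, a direction opposite to that of *SMAD2*. With TGFβ it was also higher, at 9106 and 8764.5 in siPHF13 against 5808 and 6271 in siControl, but limma did not call it there. *SMAD6*, an inhibitor of BMP signals, had a log2 fold change of -0.70 with depletion in TGFβ-treated cells. Without TGFβ it was not called, at 270.5 and 264.4 normalized counts in siPHF13 against 403.1 and 385.6 in siControl. TGFβ raised 1 past both thresholds, the inhibitory *SMAD7*, by 1.08 in siControl cells and 0.77 in siPHF13 cells. Not called were *SMAD6*, at 597.3 and 581.1 in siControl + TGFβ, and *SMAD1*, at 1448.9 and 1416.3 there against 1011.1 and 1009.1 in siControl. At an adjusted p under 0.05 irrespective of size, 1 of the 5 was higher and 1 lower with depletion without TGFβ, and 1 higher and 3 lower with TGFβ. For exposure to TGFβ itself, limma had 3 higher and 0 lower in siControl cells at that p, and 1 higher and 0 lower in siPHF13 cells. Of 12 relays that carry receptor signals without SMADs, such as kinases of the stress pathway, limma, edgeR and DESeq2 called 0 in each of the 5 comparisons. At an unadjusted p under 0.05 limma had 4 higher and 4 lower with depletion without TGFβ, 6 higher and 0 lower with TGFβ in siControl cells, 1 higher and 4 lower with depletion with TGFβ, 1 higher and 2 lower with TGFβ in siPHF13 cells, and 0 higher and 1 lower in the interaction. An adjusted p under 0.05 was reached by 3 higher and 3 lower, 3 higher and 0 lower, 1 higher and 4 lower, 0 and 0 of these in the order just given. The genes that reached it among all 13307 were, in the same order, 6308, 2114, 6712, 409 and 55, both directions together. For the unadjusted p no count over all genes is given.

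A list of genes known as targets of *SMAD3* stands for possible outputs of the pathway, and 11 of them were analysed here. Whether *SMAD3* drives them in these cells was not tested. *SNAI2* (10.8 to 55.1 normalized counts over the 8 libraries) and *TAGLN* (59.2 to 101.5) were low and were not called by limma in any comparison. TGFβ raised 8 in siControl cells and 6 in siPHF13 cells and lowered 0 in either. The medians were 1.26 and 0.81. The largest responses in siControl cells were those of *PMEPA1*, a feedback inhibitor of TGFβ signals, at 2.20, *ANGPTL4*, a secreted lipase inhibitor, at 1.64, and *LTBP2*, a matrix protein, at 1.50. The interaction was called negative for 5 of the 11 (*PMEPA1*, *ANGPTL4*, *LTBP2*, *CTGF* and *TGFBI*) and positive for 0, with 3 called by edgeR and 4 by DESeq2. When 1 library was left out, *PMEPA1* was called in 8 of 8 fits, *CTGF* and *ANGPTL4* in 5 each, and *LTBP2* and *TGFBI* in 3 each. *PMEPA1* was the 1 gene still called without siControl replicate 2 and without siControl + TGFβ replicate 1. The median of the interaction over the 11 was -0.49, against -0.01 over all genes.

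These targets did not start from the same level in depleted cells. Without TGFβ depletion raised 4 past both thresholds, while 4 others were lower at an adjusted p under 0.05 by less than the fold threshold. These were *KLF10* at -0.46, *BHLHE40* at -0.42, *ANGPTL4* at -0.40 and *PMEPA1* at -0.21, with limma adjusted p from 6.47e-05 to 0.00923. *TGFBI*, a matrix protein, was at 24941 and 25062.5 normalized counts in siControl and 52834 and 57796 in siPHF13, a log2 fold change of 1.14. *CTGF* (*CCN2*), a matricellular growth factor, rose by 1.01 and *IL11*, a cytokine, by 1.24. With TGFβ, depletion raised 1 of the 11, *IL11*, and lowered 4, with *ANGPTL4* at -1.13, *PMEPA1* at -0.95 and *KLF10*, a zinc finger repressor, at -0.67. At an adjusted p under 0.05 irrespective of size, limma had 6712 of all 13307 genes there and 6308 without TGFβ, both directions together. Of the 11 targets, 4 were higher and 5 lower there at that p. The 6 not called there included *TGFBI*, at 0.54, *CTGF* and *LTBP2*, each higher in siPHF13 cells by less than the fold threshold. Over the 11 genes the medians were -0.15 with depletion without TGFβ and -0.06 with it. *PMEPA1* was measured at 3834 and 3745.5 in siControl, 3250.5 and 3279.9 in siPHF13, 18006 and 16900.2 in siControl + TGFβ, and 9164 and 8862 in siPHF13 + TGFβ.

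**Figure D4:**
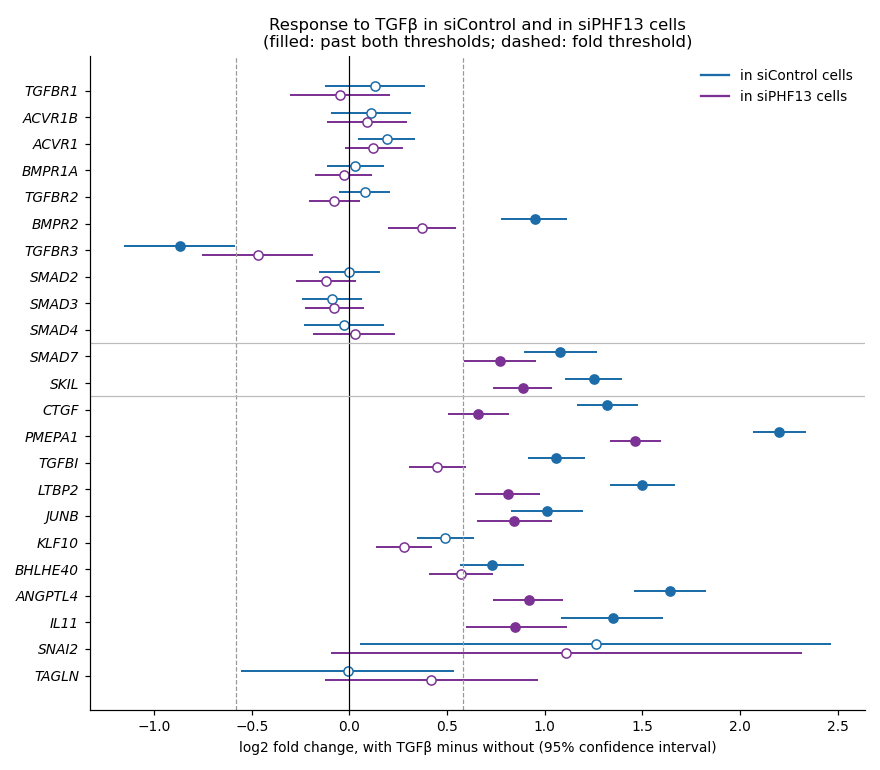
Log2 fold change with TGFβ (x axis) in siControl cells (blue) and siPHF13 cells (purple) for the 10 members (top), *SMAD7* and *SKIL* (middle) and 11 *SMAD3* target genes (bottom), with 95% confidence intervals from limma. Filled points passed both thresholds, and the dashed lines stand at 0.58 on either side of 0. Of the members only *BMPR2* (0.95) and *TGFBR3* (-0.87) are filled, in siControl cells, whereas *PMEPA1* reaches 2.20.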

How the data were processed

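Polyadenylated RNA of PANC-1 cells was sequenced in 4 groups of 2 libraries. Per the labels and the study's methods, the authors trimmed paired reads with Trim Galore 0.4.1, mapped them with STAR 2.7.0 (hg19), counted reads on exons with HTSeq 0.12.4 and normalized the counts with DESeq2. The annotation release and the strand setting of the counting are not given in the sources used here. The deposited values are a signal, gene counts divided by the size factor of the library. The 3 other deposited tables hold the authors' group means, fold changes, standard errors and p-values of their own comparisons and were not used.

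Values were fitted with limma 3.58.1 (R 4.3.3, trended prior variance) as log2(value + 1) on all 8 libraries without a block, since the study does not state that replicate numbers pair libraries. A minimum of 10 in at least 2 libraries removed 0 of 13307 genes. Adjusted p-values are Benjamini-Hochberg values over all genes. In each library 100% of the values were multiples of a single step, the value of 1 read, within 0.001 of a whole number. This gave whole reads for edgeR 4.0.16 and DESeq2 1.42.0 in 7 libraries. In siPHF13 replicate 1 the step of 0.995 is too near 1, and no count model was run on it, which left the untreated siPHF13 group with 1 library there. No counting interval is given for single genes, since it would leave out any spread between libraries beyond counting. Gene positions, transcript lengths and start regions came from GRCh37, the same build as hg19, with a GENCODE annotation lifted to it, and 98.6% of the genes had a length. The comparisons between groups were tested on simulated data with 200 changed genes, whose changes were larger than the fold threshold. That test did not cover the interaction or values near the threshold.

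The members and lists were chosen with earlier results of these data known, so that no test over a list is given. A gene of the target list is not reported here. All 10 members were named. From each list the 3 largest changes among called genes of a comparison were named, and genes named beyond that were chosen after their values were seen. As alternatives, each library was left out in turn, the pseudocount was set to 5, the low-value minimum or the fold threshold was dropped, TMM factors or a replicate block were used, only the groups compared were fitted, and edgeR and DESeq2 were run. Chosen after seeing the data were a correction of each library for transcript length and GC content (natural splines with 5 degrees of freedom), replicate blocks on only the libraries compared (crossed for siPHF13 cells) and canonical transcript lengths.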

Additional observations from a re-analysis of the deposited data

Results flagged for a closer look

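Among the members, the pathway lists and the marker lists, the response to TGFβ differed between siPHF13 and siControl cells for 8 transcripts at an adjusted p under 0.05 in limma's test of that difference (siPHF13 minus siControl, log2 scale). Each of the 8 had a smaller response in siPHF13 cells. *BMPR2*, the only member among them, responded by 0.95 in siControl and 0.37 in siPHF13 cells, a difference of -0.57 (SE 0.11, adjusted p = 0.0447) that stood under the fold threshold and passed that p in 2 of 8 fits that left out 1 library. *SMAD3* target genes make up 5 of the others. *PMEPA1* responded by 2.20 and 1.46, a difference of -0.74 (adjusted p = 0.00118). *ANGPTL4* responded by 1.64 and 0.92, a difference of -0.72 (adjusted p = 0.0137). *LTBP2* had 1.50 and 0.81, a difference of -0.68 (adjusted p = 0.00985), and *CTGF* 1.32 and 0.66, a difference of -0.66 (adjusted p = 0.00909). For *TGFBI* the values were 1.06 and 0.45, a difference of -0.61 (adjusted p = 0.00909). In 8 fits that each left out 1 library, the adjusted p was under 0.05 in 8 for *PMEPA1*, in 5 for *CTGF* and *ANGPTL4* and in 4 for *LTBP2* and *TGFBI*. It was lost for all of these but *PMEPA1* without siControl replicate 2 and without siControl + TGFβ replicate 1, and the highest adjusted p of these 4 over the 8 fits was 0.142 to 0.18. Of the markers, the collagen gene *COL1A1* responded by 2.23 and 1.33, a difference of -0.89 (adjusted p = 0.000358) that passed in 8 of 8 such fits. The ductal keratin *KRT19* responded by -0.84 and -0.33, a difference of 0.50 (adjusted p = 0.0255) under the fold threshold that passed in 2 of 8. *CTGF*, *LTBP2* and *TGFBI* were already higher in siPHF13 than in siControl cells without TGFβ, by 1.01, 0.89 and 1.14, whereas *BMPR2* was at -0.03. With TGFβ they were still higher in siPHF13 cells, by less than the fold threshold. *CTGF* held 19353 and 18141 normalized counts against 15112 and 14352, *LTBP2* 34059 and 28764 against 27646 and 26453. *TGFBI* held 77472 and 73619 against 53955 and 50338. *PMEPA1* and *ANGPTL4* were lower in siPHF13 + TGFβ than in siControl + TGFβ. With 2 libraries per group, single outlying libraries were not tested.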

How the results depend on the processing

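Of the alternative values for single members and PHF13, 857 kept their direction and call, 27 changed sign, 9 gained and 2 lost a call. The calls of *TGFBR1*, *TGFBR3* and *SMAD2* with depletion, and of *BMPR2* and *TGFBR3* with TGFβ in siControl cells, held under every alternative run. For *SMAD2* the length and GC correction rests on an annotated transcript of 34626 bases. *BMPR2* lost its call with depletion in TGFβ-treated cells without siPHF13 + TGFβ replicate 2 (-0.48) and after the length and GC correction (-0.36). The cause was not tested.

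Without a fold threshold, the calls over all genes were 6308 for depletion without TGFβ, 2114 for TGFβ in siControl cells, 6712 for depletion with TGFβ and 409 for TGFβ in siPHF13 cells, against 2448, 637, 2726 and 179, and those over the lists 39, 24, 45 and 13. Without that threshold *BMPR2* was the 1 member called for TGFβ in siPHF13 cells and the 1 called for the interaction, against 0. DESeq2, with a single untreated siPHF13 library, gave -0.58 for *TGFBR3* and 0.32 for *BMPR2* with TGFβ in siPHF13 cells. Its interaction value for *BMPR2* was -0.63. Interaction calls were 27 over all genes and 3 over the lists with edgeR, against 41 and 5. Leaving out 1 library gave 12 (without siControl replicate 2) to 111 (without siPHF13 + TGFβ replicate 1) over all genes and 1 to 5 over the lists, 0 to 1 members for the interaction and 0 to 1 for TGFβ in siPHF13 cells.

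The 27 changes of sign were small values that no setting called. With the length and GC correction, depletion gave 0.12 for *BMPR2* without TGFβ, and with TGFβ 0.04 for *TGFBR2*, 0.03 for *SMAD3* and 0.12 for *SMAD4*. With edgeR and DESeq2, *BMPR2* with depletion without TGFβ was 0.03, *TGFBR1* with TGFβ in siPHF13 cells 0.03 and *SMAD3* in the interaction -0.04. Leaving out 1 library turned *BMPR2* with depletion without TGFβ (-0.09 to 0.03), *BMPR1A* (-0.01 to 0.07) and *SMAD4* (-0.09 to 0.03) with TGFβ in siControl cells, *SMAD3* with depletion with TGFβ (-0.18 to 0.01), and with TGFβ in siPHF13 cells *TGFBR1* (-0.25 to 0.15), *ACVR1B* (-0.02 to 0.19), *SMAD3* (-0.17 to 0.02) and *SMAD4* (-0.10 to 0.16). In the interaction it turned *TGFBR1* (-0.38 to 0.02), *ACVR1B* (-0.12 to 0.08), *SMAD3* (-0.08 to 0.11) and *SMAD4* (-0.07 to 0.19).

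No source says that a replicate number marks a shared culture or day, and with 2 numbers the data do not settle it: the correlation of replicate differences ran from -0.252 between the siPHF13 groups to 0.271 between the TGFβ-treated groups. With the replicate block the members called were 3, 2, 4, 0 and 0 in the 5 comparisons, as without it, and the interaction of *BMPR2* had an adjusted p = 0.0673. For depletion with TGFβ, a replicate block on only the 4 libraries compared, chosen after seeing the data, called 2776 genes and the members at 4 as before. A crossed block for TGFβ in siPHF13 cells, whose numbers correlated at -0.252, called 244 genes and 0 members. Limits are the 2 libraries per group, the fold threshold that *BMPR2* lies next to, transcript lengths taken from the annotation, and depth for *BMPR1B* and *ZEB2*, at 11.5 to 35 and 16.9 to 91.6 normalized counts.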
